A study of Mus musculus with 24 samples.

Results

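Antioxidant defence and glutathione metabolism were followed through 48 named genes in mouse brain RNA. The mice came from CAST/EiJ, an inbred strain of castaneus origin, and WSB/EiJ, one of domesticus origin, both derived from wild animals. The genes were taken by name: superoxide dismutases and catalase, glutathione peroxidases, peroxiredoxins, the thioredoxin system, glutathione synthesis, glutathione transferases, the Nrf2 pathway with its enzymes, and paraoxonases with methionine sulfoxide reductases. All 48 were found among the 53465 genes listed in the count files, 44 had enough reads to be tested among 18425 genes, and the other 4 are listed at 0 reads in every animal. The CAST group held 6 animals and the WSB group 6, each animal with 1 brain library read on 2 lanes. The study asked how brain expression differs between strains whose infarcts differ in size when a cerebral artery is blocked, but the labels of these libraries record no surgery or treatment, and they give no genotype beyond the strain, no sex, no age and no brain region. The animals are numbered separately and were taken as the replicates. A p-value here thus sets the strain difference against the spread between animals of each inbred line.

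Cells of the brain produce superoxide and hydrogen peroxide as they respire. Superoxide dismutases turn superoxide into hydrogen peroxide, which catalase, glutathione peroxidases and peroxiredoxins reduce to water. Glutathione and thioredoxin pay for these reactions and are recycled with NADPH, and glutathione transferases join glutathione to reactive lipid products and foreign compounds. The transcription factor Nrf2, encoded by Nfe2l2 and held back by Keap1, switches on many of these genes through a DNA sequence called the antioxidant response element. In brain much of the glutathione is made in astrocytes, which also pass its precursors to neurons.

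The core of that element, TGACNNNGC, where N is any base, was searched on either strand in the promoter windows of RefSeq's table (mouse build GRCm38.p6), each from 250 bases before to 50 bases after a start site. The table matched 41 of the 48 genes. Of these, 11 held the core in a window (26.8%), against 3781 of all 27025 genes in the table (14.0%), and the number of windows a gene has also sets these shares, since 11 of the 53 windows of these genes held it (20.8%) against 4071 of 32851 windows (12.4%). The genes were Gclm, Gstm5, Gstm7, Mgst1, Nfe2l2, Pon2, Pon3, Prdx1, Sod1, Srxn1 and Txnrd1. The fuller form TGACTCAGC, which overlaps the core and was added after the values were seen, was found in 1 of the 41, Prdx1 (2.44%), and in 136 of the 27025 genes (0.503%). Stretches of 5 genes are shown because they carry the core while the genes themselves were called higher, lower or not at all in the results that follow. Each runs 5′ to 3′ on the strand of its gene, and capitals mark the core or its reverse complement.
Prdx1: gggaaagcGCTGAGTCAtcccccgt
Gstm7: tgaagaccTGACAAAGCgaagccaa
Sod1: caaggtggGCGTGGTCAgactcagg
Txnrd1: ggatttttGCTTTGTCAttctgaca
Gclm: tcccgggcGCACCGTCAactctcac
The Prdx1 stretch lies at chr4:116685458-116685482 on the plus strand, 124 bases before the start. That of Gstm7 lies at chr3:107931727-107931751 on the minus strand, 120 bases before it. The Sod1 stretch is at chr16:90220698-90220722 on the plus strand, 47 bases before the start, and that of Txnrd1 at chr10:82859106-82859130 on the plus strand, 83 bases before it. The Gclm stretch is at chr3:122245415-122245439 on the plus strand, 125 bases before the start. Each start is that of the RefSeq window. In the GENCODE M21 gene annotation the Gstm7 and Txnrd1 stretches lie inside the genes, at chr3:107926334-107931817 and chr10:82833951-82897712. These letters are those of the reference strain. A match describes letters in a window, not a bound site, and the alleles of CAST and WSB were not analysed here.

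Reads in genes numbered 38771135 to 46513232 per CAST animal and 32982569 to 45772849 per WSB animal. The share of alignments counted as not unique was 15.6% to 16.1% in CAST and 16.99% to 17.5% in WSB, so it moved with strain, and its part in the results was not tested. How well the reads of each strain align at single genes was not tested either. All CAST libraries precede all WSB libraries in index order, so that order and strain cannot be told apart. Markers of neurons, astrocytes and oligodendrocytes were abundant in every animal, as the brain label has it, while Gfap and P2ry12, defining markers of astrocytes and microglia, are listed at 0 in all. A pair of libraries stood apart. In CAST_142 the cerebellar granule neuron markers summed to 1226 CPM (CPM is a gene's share of the reads in genes of a library, scaled by TMM), against at most 40.9 in the other CAST animals, and its striatal markers summed to 101 against at least 501. In WSB_100 the olfactory bulb markers summed to 218 CPM, against at most 41.9 in the other WSB animals. CAST_142 was the highest CAST animal for 20 of the 44 tested genes and the lowest for 12. Results were therefore also computed without both.

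Of the 44 tested genes, 26 differed between the strains: 16 were higher in CAST and 10 were lower, by edgeR's quasi-likelihood test with a Benjamini-Hochberg adjusted p under 0.05 over all genes. Over all genes tested 42.7% were called, 21.5% higher and 21.2% lower, and among protein-coding genes alone 39.2%. The share here was 59.1%, and no test of the list as a whole was made. The median log2 difference, CAST over WSB, was 0.07, against 0.0046 over all genes, and single genes ran from -3.42 to 2.94. Most differences were small: their median size was 0.24 on the log2 scale, against 0.22 over all genes and 0.18 over protein-coding genes. A call with at least 1.5-fold was made for 8 genes, or 18.2% of those tested, against 20.8% of all genes and 14.7% of protein-coding genes. Gstm7, Pon3, Sod3, Slc7a11, Hmox2 and Gstm2 were higher in CAST by this much, and Pon2 and Gsta4 were lower. In 18 genes (40.9%) the 6 CAST animals did not overlap the 6 WSB animals, 11 with CAST above and 7 with CAST below, against 27.1% of all genes. Without CAST_142 and WSB_100, 26 genes were again called, 25 of them the same genes in the same direction, with Prdx3 lost and Msrb1 gained, when 46.6% of all genes were called.

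**Figure D1:**
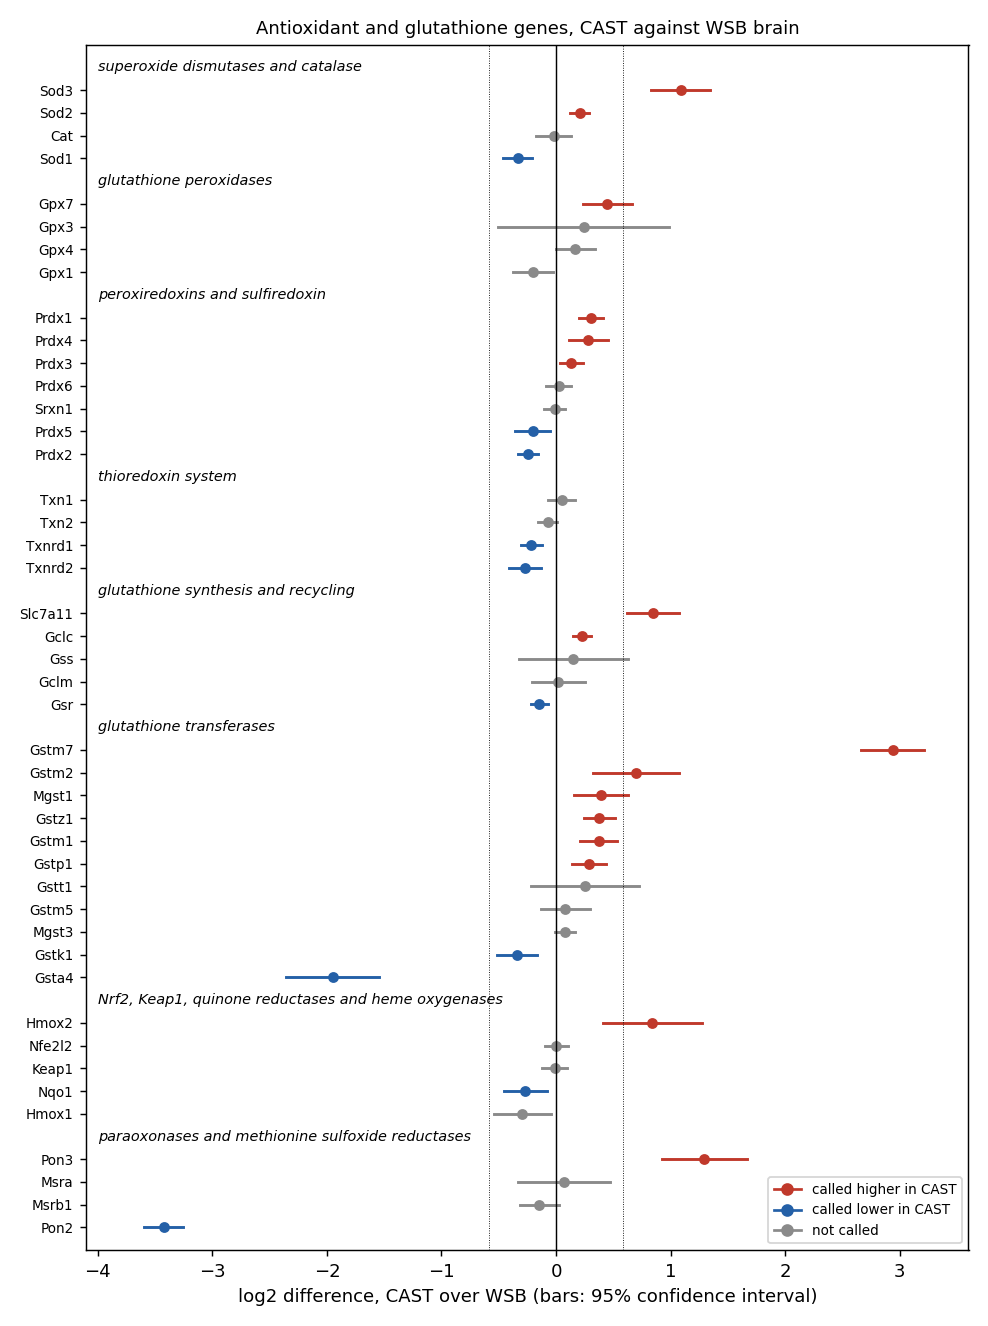
Log2 difference between the strains (x axis, CAST over WSB, with 95% confidence intervals) for the 44 tested genes, grouped by role. Pon2 at -3.42 and Gstm7 at 2.94 lie farthest from 0, and the paraoxonases and transferases reach farthest from it in both directions.

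**Figure D2:**
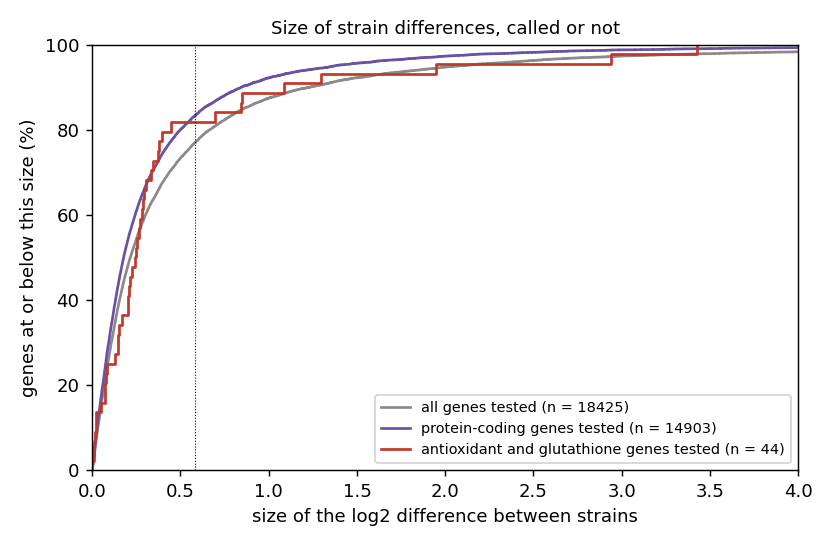
Share of genes (y axis, percent) whose log2 difference between the strains is at or below the size on the x axis, whether called or not. The curve of the antioxidant and glutathione genes has its median at 0.24, beside 0.22 for all genes tested and 0.18 for protein-coding genes.

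The superoxide dismutases moved in opposite directions: Sod3 and Sod2 were higher in CAST and Sod1 was lower. Sod3, the secreted enzyme of the extracellular space, had the fewest reads of the 3 in both strains, with 5.08 CPM in the lowest CAST animal, 5.77 at the median and 7.73 in the highest, and with 2.38, 2.85 and 3.17 in WSB. Every CAST animal was above every WSB animal. The difference was 2.13-fold (95% interval 1.78 to 2.54; log2 1.09 ± 0.12 SE, adjusted p = 6.09e-06, edgeR). It rests on 207 to 342 reads per CAST animal and at least 94 per WSB animal, and the gene lies at chr5:52363791-52371418 on the plus strand with no other gene over it. Sod2, the manganese enzyme of the mitochondrial matrix, had the most reads of this role, with 177, 185 and 194 CPM as lowest, median and highest in CAST and 150.1, 159.8 and 171 in WSB. The strains again did not overlap, but the difference was 1.15-fold (1.09 to 1.22, adjusted p = 0.000725, edgeR). Of the 32-base words of Sod2 (stretches of 32 letters in its transcripts), 22.2% occur in other transcripts. Those of Rps6ka2, which was lower in CAST (log2 -0.40), hold 19.8%, and how reads were shared between these genes is not known. Sod1, the copper and zinc enzyme of the cytosol, had 73.4, 81.7 and 87.0 CPM in CAST and 93.5, 100.3 and 112 in WSB. It was lower in CAST in all animals, by 1.26-fold (1.16 to 1.38, adjusted p = 0.000342, edgeR). Catalase, Cat, which breaks down hydrogen peroxide in peroxisomes, was not called, with a log2 difference of -0.02 and a 95% interval of -0.17 to 0.13.

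Among the glutathione peroxidases, 1 of 4 tested was called. Gpx7, a peroxidase of the endoplasmic reticulum, was higher in CAST by 1.36-fold (95% interval 1.18 to 1.58, adjusted p = 0.00235, edgeR), at 3.21, 3.98 and 4.27 CPM against 2.50, 2.78 and 3.25 in WSB. The highest WSB animal was thus just above the lowest CAST animal. Gpx1, the main cytosolic enzyme and the one with the most reads, had 30.8, 36.5 and 38.3 CPM in CAST and 35.4, 40.8 and 49.99 in WSB. Its log2 difference of -0.20 had an interval of -0.38 to -0.03 and did not pass the test over all genes (adjusted p = 0.0611, edgeR). Gpx4, which reduces lipid hydroperoxides in membranes and so guards against ferroptosis, had a log2 difference of 0.17 (-0.00 to 0.34, adjusted p = 0.101, edgeR). Its count is uncertain: 38.5% of its 32-base words occur in transcripts of other genes, among them the processed copy Gpx4-ps2, which had 93.9 to 102 CPM in CAST where Gpx4 had 14.7 to 20.6. Gpx3, the secreted plasma form, ranged from 7.08 to 28.3 CPM within CAST alone, the widest spread of these enzymes, and its interval ran from -0.50 to 0.98. Gpx8 is listed at 0.

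The peroxiredoxins, which reduce peroxides through a reactive cysteine, split by member, with 3 higher and 2 lower in CAST of 7 genes tested including sulfiredoxin. None reached 1.5-fold. Prdx1, a cytosolic enzyme that follows Nrf2 in many cells and the only gene here with the fuller element in its promoter window, had 29.7, 33.1 and 34.7 CPM in CAST and 24.9, 25.8 and 29.0 in WSB. Its strains did not overlap, and it was 1.24-fold higher in CAST (1.15 to 1.33, adjusted p = 0.000197, edgeR). Other transcripts hold 14.9% of its 32-base words, among them the processed pseudogenes Gm21399 (log2 0.18, not called) and Gm7204 (log2 -1.61, lower in CAST). Prdx2, a cytosolic form that is abundant in neurons, was lower in CAST. It had 52.1, 53.4 and 55.3 CPM in CAST and 60.4, 62.5 and 70.3 in WSB (1.19-fold, adjusted p = 0.000232, edgeR). The share of words found in other transcripts was 16.1% for Prdx2 and 16.8% for Prdx5. Prdx4, the form of the endoplasmic reticulum, was 1.22-fold higher in CAST (12.1, 13.8 and 15.5 CPM against 9.87, 11.4 and 12.7; adjusted p = 0.0113, edgeR), with an overlap between the strains. The mitochondrial forms were the least firm calls. Prdx3 was higher in CAST with a log2 difference of 0.13 (adjusted p = 0.0363, edgeR; 0.00592 to 0.0816 over the alternatives), and Prdx5 was lower with -0.20 (adjusted p = 0.0353, edgeR). The call of Prdx5 was lost in 9 of the 12 fits that left out 1 animal (adjusted p 0.0567 to 0.0750, edgeR). Without CAST_142 and WSB_100 together its difference was -0.31 (adjusted p = 3.27e-05, edgeR), and CAST_142 had the highest CAST value of Prdx5, 103 CPM. Prdx6, which also acts on phospholipid peroxides, had the most reads of this role and did not pass the test: CAST had 107, 123 and 126 CPM and WSB 107, 119.5 and 128, with an interval of -0.09 to 0.13 on the log2 scale. Srxn1, the sulfiredoxin that repairs overoxidised peroxiredoxins and a textbook Nrf2 target, likewise lay at -0.01 (-0.11 to 0.08).

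In the thioredoxin system both reductases were lower in CAST, and neither thioredoxin was called. Txnrd1, the cytosolic thioredoxin reductase, had 57.7, 61.4 and 67.0 CPM in CAST, all below the 69.0, 70.6 and 76.1 of WSB. This was a difference of 1.16-fold (1.09 to 1.24, adjusted p = 0.00124, edgeR). Txnrd2, its mitochondrial counterpart, had 11.3, 11.8 and 12.4 CPM against 12.3, 14.5 and 16.1, so that the ranges just met (1.21-fold lower in CAST, adjusted p = 0.00357, edgeR). Txn2, the mitochondrial thioredoxin, had the most reads of the system. It had 64.2, 67.7 and 71.8 CPM in CAST and 69.5, 71.7 and 76.2 in WSB, an overlap, and a log2 difference of -0.07 (-0.15 to 0.01). For Txn1, the cytosolic thioredoxin, the difference was 0.05 (-0.07 to 0.17). Txnip, which binds and blocks thioredoxin, is listed at 0.

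Of the synthesis and recycling genes, Slc7a11 showed the clearest difference. Slc7a11, the cystine-glutamate exchanger that brings cystine into astrocytes and other cells, had 48.7, 52.1 and 67.3 CPM in CAST and 25.7, 29.9 and 38.1 in WSB. The lowest CAST animal was CAST_142 and the highest WSB animal was WSB_100, and even these did not meet. The gene was 1.80-fold higher in CAST (95% interval 1.54 to 2.102; log2 0.85 ± 0.10 SE, adjusted p = 1.81e-05, edgeR). It spans chr3:49892526-50443614 on the minus strand, and 5 small predicted genes lie inside it, none over its exons. Gclc, the catalytic subunit of the rate-limiting glutamate-cysteine ligase, had the most reads of this role, 81.6, 84.5 and 89.1 CPM in CAST above 70.3, 71.1 and 77.3 in WSB. It was 1.17-fold higher (1.11 to 1.24, adjusted p = 0.000258, edgeR). Gsr, the reductase that restores glutathione from its oxidised form, was 1.11-fold lower in CAST, again without overlap (35.1, 36.3 and 38.1 CPM against 39.2, 40.0 and 42.4; adjusted p = 0.00481, edgeR). Gclm, the modifier subunit of the ligase, and Gss, glutathione synthetase, were not called, with intervals of -0.21 to 0.25 and -0.32 to 0.63. Only 9.87% of the exon bases of Gclm and 2.28% of those of Gss lie outside other genes, so the counts of both may stand for a small part of the gene. Acss2 is among the genes that overlap Gss. In bulk tissue such as this, fewer cells of a type and less RNA per cell cannot be told apart. Of the astrocyte markers tested, 1 of 6 was higher in CAST (Gja1), 1 was lower (Aldh1l1), and their sum was 3854 to 5303 CPM in CAST and 3856 to 4610 in WSB. The lowest CAST animal was CAST_142. Without CAST_142 and WSB_100, this sum was 4454 to 5303 CPM in CAST and 3856 to 4610 in WSB. Its part in the difference of Slc7a11 was not tested.

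Of the glutathione transferases tested, 6 of 11 were higher in CAST, 2 were lower and 3 were not called. Gstm7, a cytosolic transferase of the mu class that binds glutathione to electrophiles, differed most. CAST animals had 44.8, 69.2 and 74.9 CPM and WSB animals 7.48, 8.20 and 10.6, so that CAST_142, the lowest CAST animal, was still far above all WSB animals. The gene was 7.66-fold higher in CAST (95% interval 6.33 to 9.27; log2 2.94 ± 0.13 SE, adjusted p = 6.41e-10, edgeR). It had 1985 to 3520 reads per CAST animal and 302 to 435 per WSB animal, and only 2.31% of its 32-base words occur in other transcripts.

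Gsta4, an alpha-class transferase that clears 4-hydroxynonenal, a toxic product of lipid peroxidation, went the opposite way. CAST animals had 3.93, 5.51 and 9.15 CPM and WSB animals 18.2, 23.5 and 27.0. The nearest animals were CAST_142 at the top of one range and WSB_100 at the bottom of the other. Gsta4 was 3.86-fold lower in CAST (2.91 to 5.11; log2 -1.95 ± 0.19 SE, adjusted p = 1.79e-06, edgeR), and log2 -2.17 without these animals. It lies at chr9:78182774-78209349 on the plus strand, with no other gene over it and no 32-base word shared with another transcript. Gclc lies on the same chromosome at chr9:77754535-77794485, and was called in the other direction.

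Gstm2 was 1.62-fold higher in CAST (1.25 to 2.105; log2 0.70 ± 0.17 SE, adjusted p = 0.00554, edgeR), at 0.648, 0.812 and 1.16 CPM against 0.392, 0.4995 and 0.643. The ranges almost touched, and the counts were low, 24 to 49 reads per CAST animal and 13 to 30 per WSB animal, so this value is among the least precise. Gstm1, the mu-class transferase with the most reads, had 67.5, 72.2 and 81.2 CPM in CAST and 47.6, 56.3 and 67.4 in WSB, just without overlap (1.29-fold, adjusted p = 0.00112, edgeR). As 28.2% of its 32-base words occur in other transcripts, it is uncertain how its reads were shared with near copies. Gstz1, an enzyme of tyrosine breakdown with 59.2% of its exon bases outside other genes, was 1.30-fold higher in CAST (35.2, 42.4 and 44.3 CPM against 28.4, 32.4 and 33.5; adjusted p = 0.000273, edgeR). Mgst1, a membrane-bound form, was 1.31-fold higher, and Gstp1, the pi-class enzyme, 1.22-fold higher, with 38.3% of its words shared with its copy Gstp2 and others. Gstk1, a mitochondrial and peroxisomal form, was 1.27-fold lower in CAST without overlap (3.96, 4.25 and 4.54 CPM against 4.63, 5.45 and 5.94; adjusted p = 0.00386, edgeR). Gstm5, Gstt1 and Mgst3 were not called, with log2 differences of 0.08 to 0.25, and Gsto1 is listed at 0.

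The mu-class genes sit side by side on chromosome 3, from Gstm5 at chr3:107895821-107898686 to Gstm4 at chr3:108040408-108044894 in GRCm38, and did not differ to the same extent. In order along the chromosome, the log2 difference was 0.08 for Gstm5, 2.94 for Gstm7, 1.15 for Gstm6, 0.70 for Gstm2, 0.37 for Gstm1 and 0.48 for Gstm4. All of these but Gstm5 passed the test, with CAST higher. Gstm6, outside the 48 genes, had 1.15, 1.71 and 3.63 CPM in CAST and 0.676, 0.798 and 1.21 in WSB (adjusted p = 0.0042, edgeR), and Gstm4 had 5.83, 7.03 and 8.30 against 3.71, 4.83 and 6.19 (adjusted p = 0.00876, edgeR). Both overlapped between the strains. Gstm3 had 2 reads over all animals.

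**Figure D3:**
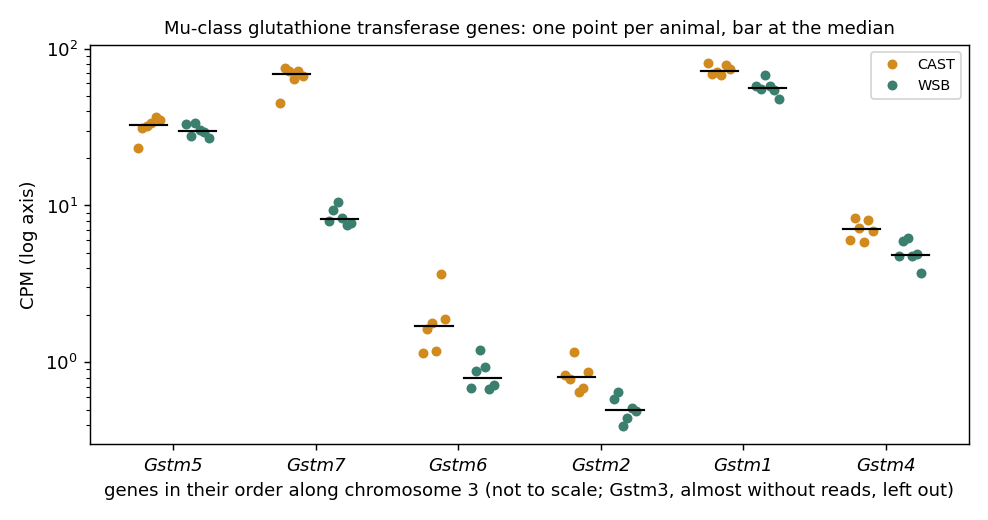
CPM (y axis, log scale) of 6 neighbouring mu-class transferase genes in their order along chromosome 3, 1 point per animal with a bar at the strain median. Gstm7 separates the strains widely, with CAST at 44.8 to 74.9 and WSB at 7.48 to 10.6, while Gstm5 beside it overlaps.

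Neither Nrf2 nor its inhibitor was called, and the intervals of both were narrow. Nfe2l2, which encodes Nrf2, had 13.4, 13.8 and 14.3 CPM in CAST and 12.6, 13.8 and 14.5 in WSB, a log2 difference of 0.0041 with a 95% interval of -0.09 to 0.10. Keap1, the adaptor that marks Nrf2 for degradation, had the most reads of this role, 30.1, 35.1 and 37.1 CPM in CAST and 33.4, 34.7 and 36.6 in WSB. The ranges overlapped, and its interval was -0.12 to 0.10. Of the exon bases of Keap1, 67.6% lie outside other genes. Gm16754, which overlaps Keap1 on the opposite strand, was lower in CAST (median 0.380 CPM against 1.19, adjusted p = 2.16e-05, edgeR). These are RNA levels, and Nrf2 activity is set largely at the protein. Hmox2, the constitutive heme oxygenase of neurons, had 1.89, 2.35 and 4.47 CPM in CAST and 1.24, 1.38 and 1.87 in WSB. The ranges lay next to each other, and CAST_142 was the highest by a wide margin. Hmox2 was 1.79-fold higher in CAST (1.33 to 2.42; log2 0.84 ± 0.20 SE, adjusted p = 0.00388, edgeR), and log2 0.70 without CAST_142 and WSB_100. The count of Hmox2 is uncertain: only 12.2% of its exon bases lie outside other genes, and Cdip1, which overlaps it on the opposite strand, had 168 to 185 CPM in CAST and 166 to 185 in WSB and was not called (adjusted p = 0.669, edgeR). Nqo1, a quinone reductase that Nrf2 induces, was 1.204-fold lower in CAST (4.19, 4.89 and 5.96 CPM against 5.74, 6.01 and 6.32; adjusted p = 0.0246, edgeR). That call was lost on lane 6 alone (0.171) and without CAST_170 (0.0564), CAST_200 (0.0554) or WSB_135 (0.0504). Hmox1, the inducible heme oxygenase, had a log2 difference of -0.29 that did not pass (-0.54 to -0.05, adjusted p = 0.0540, edgeR; 0.0354 with DESeq2). Nqo2 is listed at 0.

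Among the genes with the antioxidant response core in a promoter window, calls went in both directions. All 11 were tested and 7 were called: Gstm7, Mgst1, Pon3 and Prdx1 were higher in CAST, and Pon2, Sod1 and Txnrd1 were lower. Of the 26 tested genes with a window but without the core, 15 were called. Over all genes tested 42.7% were called, among protein-coding genes 39.2%, and among the 44 genes here 59.1%. Whether calls go with the core was not tested. Of the stretches printed above, those of Prdx1 and Gstm7 belong to genes that were higher in CAST, those of Sod1 and Txnrd1 to genes that were lower, and that of Gclm to a gene that was not called.

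The paraoxonases, lactonases that protect lipids from oxidation, held the largest difference of the 44 genes. Pon2, the membrane-bound member found in mitochondria of many tissues including brain, had 2.19, 2.50 and 2.90 CPM in CAST and 24.1, 27.8 and 29.0 in WSB. No CAST animal came near a WSB animal, and within each strain the values were tight. It was 10.7-fold lower in CAST (95% interval 9.56 to 12.1; log2 -3.42 ± 0.08 SE, adjusted p = 1.36e-12, edgeR), on 101 to 122 reads per CAST animal and 962 to 1290 per WSB animal. Pon2 lies at chr6:5264147-5298455 on the minus strand, 90.7% of its exon bases are outside other genes, and 13.9% of its 32-base words occur in other transcripts. Whether reads of CAST and WSB align to it equally well was not tested.

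Its neighbour Pon3, which circulates with lipoproteins and was measured here at low levels, differed in the opposite direction. CAST animals had 1.11, 1.58 and 1.79 CPM and WSB animals 0.417, 0.636 and 0.836, without overlap. The difference was 2.45-fold, higher in CAST (1.90 to 3.17; log2 1.30 ± 0.17 SE, adjusted p = 3.40e-05, edgeR), on 49 to 84 reads per CAST animal and 16 to 39 per WSB animal. Pon3 lies at chr6:5220852-5256286, on the same strand as Pon2 and with no other gene over it. Msra and Msrb1, which repair oxidised methionine in proteins, were not called. Msra, with the most reads of this role, had 56.6, 62.7 and 116 CPM in CAST and 55.1, 67.1 and 95.3 in WSB, and its interval of -0.33 to 0.47 on the log2 scale was wide. Msrb1, a selenoprotein, had a log2 difference of -0.15 (adjusted p = 0.164, edgeR), which became a call without CAST_142 (adjusted p = 0.0160, edgeR).

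**Figure D4:**
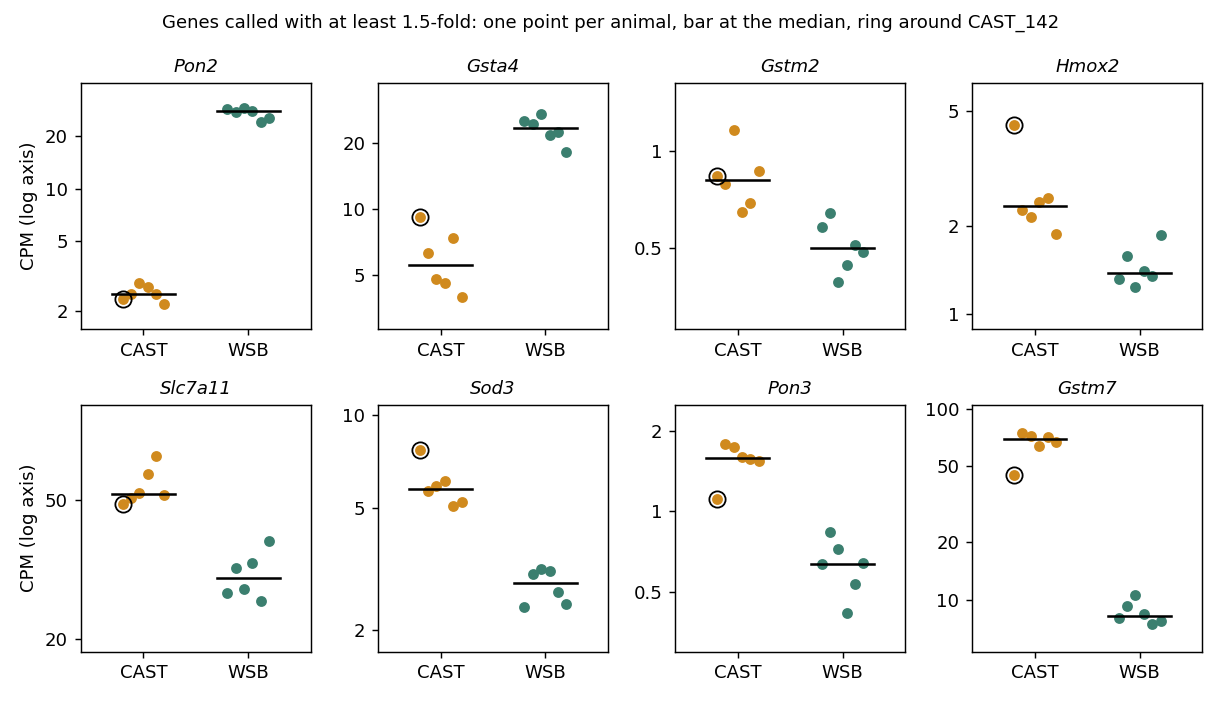
CPM (y axis, log scale) of the 8 genes called with at least 1.5-fold, 1 point per animal, a bar at the strain median and a ring around CAST_142. CAST and WSB animals do not overlap in any of the 8, and CAST_142 is the CAST animal nearest to WSB for Gstm7, Gsta4, Pon3 and Slc7a11.

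**Figure D5:**
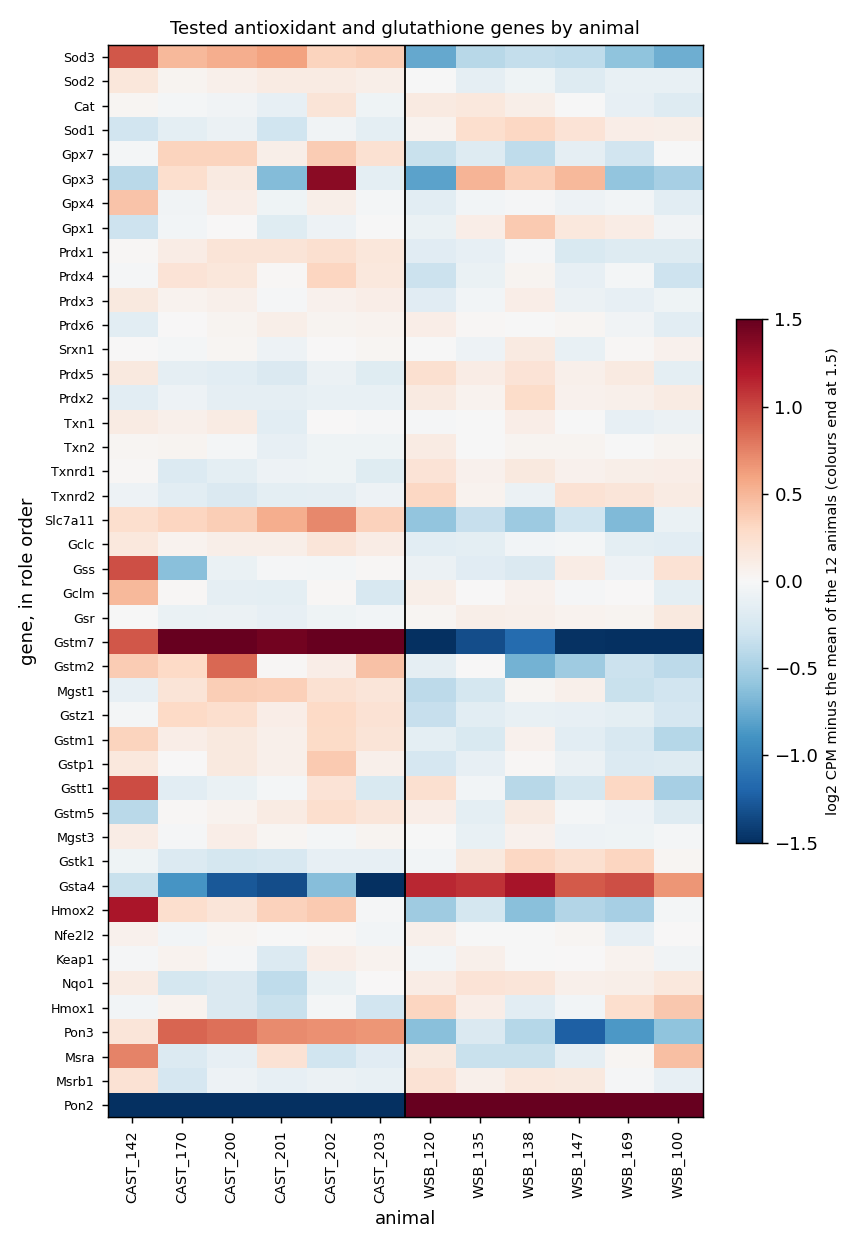
Heat map of the 44 tested genes (rows, in role order) by animal (columns, CAST to the left of the line), coloured by log2 CPM minus the mean of the 12 animals, with colours ending at 1.5. Pon2, Gstm7 and Gsta4 carry the strongest contrast between the strains, and the column of CAST_142 differs from the other CAST columns in many rows.

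Gpx8, Txnip, Gsto1 and Nqo2, listed at 0 in all animals, each have their whole body inside a gene of the opposite strand (Cdc20b, Gm15441, Cfap43 and Serpinb6a). Nothing is said of their expression. Where genes overlap only in part, each has its own count. Which gene the reads of the shared bases came from is not known, as the strand setting is not given. From 11.1% to 16.5% of alignments were counted as ambiguous, outside all genes, and these may include reads of shared bases. Where different genes are set side by side, this is by reads or CPM, which were not corrected for gene length or shared sequence.

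Of 166 further genes of these pathways, in 7 lists, 143 were tested and 67 were called (46.9%), 37 higher and 30 lower in CAST. Over all genes tested 42.7% were called, 21.5% higher and 21.2% lower, and among protein-coding genes 39.2%. The counts by list that follow were not tested against these shares. Among the remaining transferases and glutathione peroxidases, 3 of 7 tested were higher and 1 was lower. Gstcd (log2 0.80, adjusted p = 6.13e-06, edgeR) was higher in CAST, as was Gstm6, and Hpgds, the hematopoietic prostaglandin D synthase, a sigma-class transferase, was lower (log2 -1.38, adjusted p = 7.43e-06, edgeR). In glutathione turnover, glutaredoxins and glyoxalases, 4 of 20 were higher and 7 were lower. Glo1, the glyoxalase that uses glutathione to clear methylglyoxal, stood out at 71.7, 74.4 and 80.3 CPM in CAST and 24.0, 25.6 and 29.2 in WSB, a 2.91-fold difference (log2 1.54 ± 0.06 SE, adjusted p = 9.77e-11, edgeR). Grhpr and Glrx3 were lower, with log2 -0.48 and -0.31.

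Among further Nrf2 regulators and targets, 7 of 25 were higher in CAST and 4 were lower. Both biliverdin reductases, which complete heme breakdown after the heme oxygenases, were higher: Blvrb had 13.1, 13.7 and 14.6 CPM in CAST and 7.97, 8.44 and 9.53 in WSB (log2 0.69, adjusted p = 2.93e-07, edgeR), and Blvra had a log2 difference of 0.67 (adjusted p = 7.78e-07, edgeR). Cbr1, a carbonyl reductase, was lower (log2 -0.49). Enzymes that supply NADPH were split evenly, with 5 of 16 higher and 5 lower: Idh2 rose (log2 0.37), while Nnt (log2 -0.43) and Aldh1l1 (log2 -0.28) fell. Of selenoprotein genes and their synthesis, 5 of 21 were higher and 3 were lower. Selenop, which carries selenium to cells for the selenium-dependent peroxidases and reductases, had 209, 231 and 252 CPM in CAST and 109, 136 and 152 in WSB (log2 0.78, adjusted p = 1.84e-06, edgeR). Secisbp2 (log2 0.39) was also higher and Selenoi (log2 -0.42) lower.

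Oxidant-producing enzymes counted 4 of 23 higher and 4 lower, and Aox1 (log2 -0.98) and Aco1 (log2 -0.35) were among those lower in CAST. Dao, among those called higher, had 40.7 CPM in CAST_142 against a CAST median of 0.957 and at most 1.82 in WSB. Of further antioxidant proteins, 9 of 31 were higher and 6 were lower. Mt3, the brain metallothionein, had 104, 109 and 117 CPM in CAST and 60.3, 61.8 and 71.0 in WSB (log2 0.79, adjusted p = 2.12e-08, edgeR), and Coq7, an enzyme of ubiquinone synthesis, was lower (log2 -0.78, adjusted p = 1.39e-07, edgeR). Fam213b, a peroxiredoxin-like reductase, had 0 to 3 reads per CAST animal and 765 to 1158 per WSB animal. Here too, equal alignment of the reads of both strains was not tested.

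Markers of other cells give the setting of these values. Of the 9 neuronal markers none was called by edgeR (1 at an unadjusted p under 0.05), and their sum was 5844 to 6711 CPM in CAST and 6504 to 7603 in WSB. Of the endothelial and mural markers 4 of 7 were lower in CAST and 1 was higher, and their sum was 242 to 271 CPM against 309 to 355. Most of that gap was in Rgs5, a pericyte gene, with a mean of 45.8 CPM in CAST and 117 in WSB, while Cldn5 and Flt1 were not called and Pecam1 was the one higher. Of the microglia markers 2 of 5 were lower in CAST, Aif1 (1.87-fold) and Tmem119 (1.22-fold), and none was higher, with sums of 119 to 205 CPM in CAST and 187 to 205 in WSB. Without CAST_142 the CAST microglia sums were 177 to 205 CPM. Of the oligodendrocyte markers 1 of 6 was lower, Cldn11 (1.51-fold), with sums of 2770.2 to 3653 CPM and 2007 to 4813. Of the meninges and fibroblast markers 1 of 5 was higher, Lum (1.55-fold), and Igf2 is listed at 0. Blood markers were higher in CAST for 3 of 5, with sums of 47.0 to 183 CPM and 36.4 to 91.7, and Alas2 is listed at 0. Of the choroid plexus and ependyma markers 1 of 5 was higher, Ccdc153, Kcnj13 is listed at 0, and the sums varied widely in both strains, from 137 to 531 CPM in CAST and from 43.4 to 698 in WSB. The lowest CAST sums of the blood and of the choroid plexus and ependyma markers were also those of CAST_142. The part of all these cell types in the differences of the antioxidant genes was not tested.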

How the data were processed

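Per the labels, total RNA of mouse brain was sequenced on lanes 5 and 6. For each animal and lane the authors deposited unnormalized read counts per gene. Tools listed in the submitters' processing notes, with no role stated, are TopHat2 2.1.1, HTSeq, cutadapt and DESeq2; build, annotation and strand setting were not given in the sources used here. Counters that name no gene, 5 per file, were kept out (in genes: 62.9% to 68.0% of alignments). Lanes were summed per animal, since they repeat 1 library. Symbols and coordinates came from GENCODE M21 (GRCm38), which holds 53360 of the 53465 identifiers. Genes kept by filterByExpr were fitted by strain with edgeR 4.0.16 (R 4.3.3; TMM, robust quasi-likelihood test, 12 animals), after a test on simulated data, and p-values were adjusted over 18425 genes. Values given as 3 CPM in a row are the lowest, median and highest animal. Alternatives were DESeq2 1.42.0, other scalings, no filter, single lanes and left-out animals. The members and lists were chosen with earlier results of these data known. By rule, full values are given for genes called with at least 1.5-fold and for the gene with most reads in each role, others by counts, ranges and up to 3 genes per role or list with the smallest p; 1 gene this rule selects is not reported here.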

Additional observations from a re-analysis of the deposited data

Results flagged for a closer look

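In 13 of 88 sets of 6 animals (44 genes in 2 strains), the highest or lowest animal lay apart from the others by Dixon's criterion, which chance meets in about 1 set in 20. Of these, 10 were CAST_142. It was the highest CAST animal for Gpx4 (20.6 CPM, the next at 16.5), Prdx5 (103, next 87.3), Gclm (17.6, next 12.8), Gss (2.89, next 1.499), Gstt1 (8.86, next 5.18), Hmox2 (4.47, next 2.50) and Msrb1 (16.0, next 13.1). It was the lowest for Prdx6 (107, next 119.5), Gstm7 (44.8, next 64.2) and Pon3 (1.11, next 1.54). CAST_202 was the highest CAST animal for Gpx3 (28.3 CPM, next 13.2) and Gstp1 (35.6, next 30.2). WSB_120 was the highest WSB animal for Txn2 (76.2 CPM, next 71.8).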

How the results depend on the processing

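The number of these genes called was 26, 23 to 27 when 1 animal was left out and 25 to 28 under the other alternatives (DESeq2, RLE or upper-quartile scaling, no filter, 1 lane, or without CAST_142 and WSB_100). Genes higher in CAST numbered 16, 15 to 16 and 15 to 16, and genes lower 10, 8 to 12 and 10 to 12. Without overlap between strains were 18, 18 to 22 and 16 to 23, and of further pathway genes 67, 61 to 68 and 60 to 69 were called. Over all genes, 7866 were called, 7313 to 8726 and 6567 to 9066. No called gene of the 44 tested changed direction in any of these. Prdx3 lost its call in 13 of 19 alternatives. Prdx5 lost it when any of CAST_170, CAST_200, CAST_201, CAST_202, CAST_203, WSB_120, WSB_135, WSB_138 or WSB_169 was left out (adjusted p at most 0.0750, edgeR). Gpx1 gained one with DESeq2 (0.0490), without WSB_120 (0.0274) and without WSB_100 (0.0373). The cause was not tested. No paired analysis was possible because the animals of the strains carry different numbers. Depth limits Gstm2 and Pon3, with 13 to 49 and 16 to 84 reads per animal.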

Other observations

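Transcripts that overlap or resemble these genes, picked out after their values were seen, differed more than the genes themselves. The noncoding 4933431E20Rik, antisense to Gstm5 at chr3:107888850-107896213, had 1.06, 1.18 and 1.72 CPM as lowest, median and highest in CAST and 19.9, 23.6 and 25.5 in WSB (log2 -4.21 ± 0.11 SE, adjusted p = 5.72e-12, edgeR), while Gstm5 was not called. The noncoding 9630015K15Rik, antisense to Msra at chr14:64116314-64127605, had 20.8, 23.3 and 53.3 CPM in CAST, the last in CAST_142, and 2.96, 4.68 and 7.74 in WSB (log2 2.48 ± 0.28 SE, adjusted p = 9.42e-06, edgeR), while Msra was not called. The processed pseudogene Txn-ps1 at chr1:44463923-44464231 had 40 to 59 reads per CAST animal and 0 to 6 per WSB animal, while Txn1 was not called. It shares 6.57% of the 32-base words of Txn1.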
